A study of Mus musculus with 6 samples.

Results

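The genes described here are the 7 inhibitors of cyclin-dependent kinases (CDKs) Cdkn1a, Cdkn1b, Cdkn1c, Cdkn2a, Cdkn2b, Cdkn2c and Cdkn2d and the 3 D-type cyclins Ccnd1, Ccnd2 and Ccnd3. They were chosen by symbol, through their Ensembl identifiers, and are 10 of the 38924 genes counted. RNA was sequenced from mouse epidermal cells sorted by flow cytometry for CD49f, the integrin alpha 6 subunit with which basal keratinocytes hold to the basement membrane. All 6 libraries came from animals with both Rnaseh2b alleles floxed (flox/flox). The 3 Cre-positive libraries also carried K14-Cre, and the 3 Cre-negative libraries did not. In K14-Cre the keratin 14 promoter drives the recombinase in basal keratinocytes, and the cells that descend from them inherit the recombined alleles. The product of Rnaseh2b is part of RNase H2, which cuts DNA at embedded ribonucleotides so that they can be excised. Neither strain nor age was stated in the labels, nor whether libraries were separate animals. The p-values thus weigh group differences against the spread between these libraries, part of which may be technical.

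D-type cyclins are made in response to growth signals, bind CDK4 and CDK6 and start the phosphorylation of the retinoblastoma protein, which frees E2F transcription factors and lets a cell pass from G1 into S phase. INK4 inhibitors, encoded by the Cdkn2 genes, bind CDK4 and CDK6 and keep D cyclins off them. CIP/KIP inhibitors, encoded by the Cdkn1 genes, bind complexes of cyclin and CDK and block mainly those of CDK2. In epidermis, p21 (Cdkn1a) is a well-known target of p53 and of Notch1, and rises when basal cells stop dividing or their DNA is damaged.

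The sequence upstream of Cdkn1a is shown first because this gene is the best-known link between p53 and the cell cycle. The window upstream of the outer RefSeq start of Cdkn2c is shown because Cdkn1a and Cdkn2c were the 2 members whose groups did not overlap. Cdkn2c as counted reaches to position 109667189, beyond this window, so the window lies within the span of the counted gene. The windows are the 250 bases before a RefSeq start on GRCm38.p6, 5′ to 3′ on the strand of the gene, and capitals mark matches on either strand to the motifs searched. These were a p53 response element of 20 bases with at most 2 mismatches and, as exact words, the GC box, which is written GGGCGG, the TATA box, searched for here as TATAA, and the core bound by the Notch effector RBPJ, namely TGGGAA. The p53 element was 2 half-sites with no spacer, and the core C and G of each half-site had to match exactly. An E2F site was any of TTTGGCGC, TTTCCCGC and TTTCGCGC.
Cdkn1a, outer start, plus strand, chr17:29090729-29090978: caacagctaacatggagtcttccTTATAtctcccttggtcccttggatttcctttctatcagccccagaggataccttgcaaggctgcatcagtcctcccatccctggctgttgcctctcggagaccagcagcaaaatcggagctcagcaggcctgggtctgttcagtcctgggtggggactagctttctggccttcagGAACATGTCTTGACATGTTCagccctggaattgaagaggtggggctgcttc
Cdkn1a, inner start, plus strand, chr17:29093519-29093768: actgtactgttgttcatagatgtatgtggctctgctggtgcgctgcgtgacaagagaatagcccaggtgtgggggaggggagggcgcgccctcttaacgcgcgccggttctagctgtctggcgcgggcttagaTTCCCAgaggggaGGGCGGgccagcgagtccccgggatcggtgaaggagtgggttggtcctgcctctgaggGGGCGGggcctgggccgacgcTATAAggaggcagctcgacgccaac
Cdkn2c, outer start, minus strand, chr4:109666757-109667006: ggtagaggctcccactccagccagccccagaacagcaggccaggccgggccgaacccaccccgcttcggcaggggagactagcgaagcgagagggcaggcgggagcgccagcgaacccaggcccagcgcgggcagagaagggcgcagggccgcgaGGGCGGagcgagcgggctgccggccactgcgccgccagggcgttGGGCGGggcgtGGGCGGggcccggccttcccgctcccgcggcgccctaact

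The outer window of Cdkn1a held a p53 element with 1 mismatch, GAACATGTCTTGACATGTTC, from 51 to 32 bases before the start (chromosome 17, 29090928 to 29090947). Such an element lay in 89 of all 32851 windows (0.271%) and in none of the other 10 windows found for members (11 windows of 7 members; Cdkn1c, Ccnd1 and Ccnd2 had no entry). The inner window of Cdkn1a held TATAA from 25 to 21 bases before the start, a motif in 22.8% of all windows, 2 GC boxes (in 32.7%) and 1 RBPJ core (in 21.6%). The outer window of Cdkn2c held 3 GC boxes, and its inner window, not shown, held no match to any of the motifs. An E2F site lay in 1 of the 11 windows, upstream of the outer start of Cdkn2a, against 1.53% of all windows. These matches are letters in a window and say nothing of binding, and counts per gene do not show which start was used.

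Library totals ran from 22948779 to 31718094 counts. Rnaseh2b, the targeted gene, fell from 21.4 ± 0.599 to 4.18 ± 1.02 CPM (SD, n = 3 each; log2 fold change -2.34, SE 0.17, edgeR adjusted p = 0.0102), where CPM, counts-per-million, is relative to the scaled library size. With any 1 Cre-negative library left out, or Cre-positive replicate 2, its adjusted p was above the threshold (0.0508 to 0.124), while the log2 fold change over all leave-outs ran from -2.55 to -2.19. Markers of keratinocytes were high in all libraries. Krt5 of the basal layer lay between 7656 and 9075 CPM and Krt10 of the suprabasal layers between 40773 and 67532 CPM. RNA of a suprabasal marker was thus present, and which cells it came from was not tested. Of 6 basal markers 0 passed the edgeR threshold, and 2 were without overlap, in opposite directions. Krt15 was lower in Cre-positive libraries (log2 fold change -0.92, edgeR adjusted p = 0.0572) and Itgb4 higher (0.50, edgeR adjusted p = 0.0865). Suprabasal markers were higher on average in the Cre-positive group, though not in every library by each measure. Of these markers, 6 of 6 had positive log2 fold changes, 4 of them without overlap, with a median of 0.37. The edgeR threshold was passed by 0 of them (4 at an unadjusted p under 0.05). Their mean log2 CPM, relative to the Cre-negative libraries, was 0.13, 0.33 and 0.83 in Cre-positive replicates 1, 2 and 3, with -0.11 to 0.07 among the Cre-negative libraries. By the sum of the 6 markers, Cre-positive replicate 1, at 104155 CPM, lay within the Cre-negative range of 82963 to 104867. Cre-positive replicate 3 stood furthest apart. Its 6 suprabasal markers summed to 140897 CPM against 82963 to 125087 in the other libraries, its 15 mitosis genes to 641 against 1095 to 1239, and its 19 S phase genes to 716 against 1131 to 1337. It was also the 1 female library among the Cre-positive 3, by Xist and Y-linked genes, whereas Cre-negative replicates 1 and 3 were female. Fibroblast markers varied within both groups, with sums of 1368, 176 and 226 CPM in Cre-positive and 196, 288 and 811 CPM in Cre-negative replicates 1, 2 and 3. Melanocyte markers summed to 640.2 to 736 CPM in Cre-positive and 356 to 414 CPM in Cre-negative libraries, those of T cells to 5.70 to 6.88 and 11.8 to 15.6 CPM, and those of hair follicle keratinocytes to 1400 to 1985 and 2457 to 2489 CPM. By mean log2 CPM relative to the Cre-negative libraries, hair follicle markers in Cre-positive replicate 1, at 0.07, lay within the Cre-negative range of -0.18 to 0.10. Cre-positive replicates 2 and 3 had -0.45 and -0.77. The part of all these cell types in the results was not tested. In bulk RNA, fewer cells of a type and less RNA per cell cannot be told apart.

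In Cre-positive cells Cdkn1a mRNA was 1.36-fold that of Cre-negative cells and Cdkn2c mRNA was lower, each without overlap between the groups, but neither passed the threshold after adjustment. Ccnd2, Ccnd3, Cdkn1b and Cdkn2d lay at nearly the same level in both groups. Of the 9 members with enough counts to be tested, 0 passed an adjusted p of 0.05 in the quasi-likelihood test of edgeR, against 0.515% of all 15525 genes tested (0.406% higher and 0.110% lower). Limma-voom also called 0 of the 9, against 0.425% of all genes (0.335% higher and 0.0902% lower). The Wald test of DESeq2 called 1, Cdkn1a, against 6.05% of all 13999 genes it gave an adjusted p (3.99% higher and 2.06% lower). An unadjusted edgeR p under 0.05 was found for 2 of the 9, against 18.8% of all genes (10.3% higher and 8.48% lower). The groups did not overlap for 2 of the 9, against 28.0% of all genes (14.1% higher and 13.8% lower). Without Cre-positive replicate 3, edgeR also called 0 members. The median log2 fold change of the 9 was -0.02 and that of all genes tested -0.0048, with 3 members positive and 6 negative. These shares are near those of all genes, so they do not set the members apart.

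**Figure D1:**
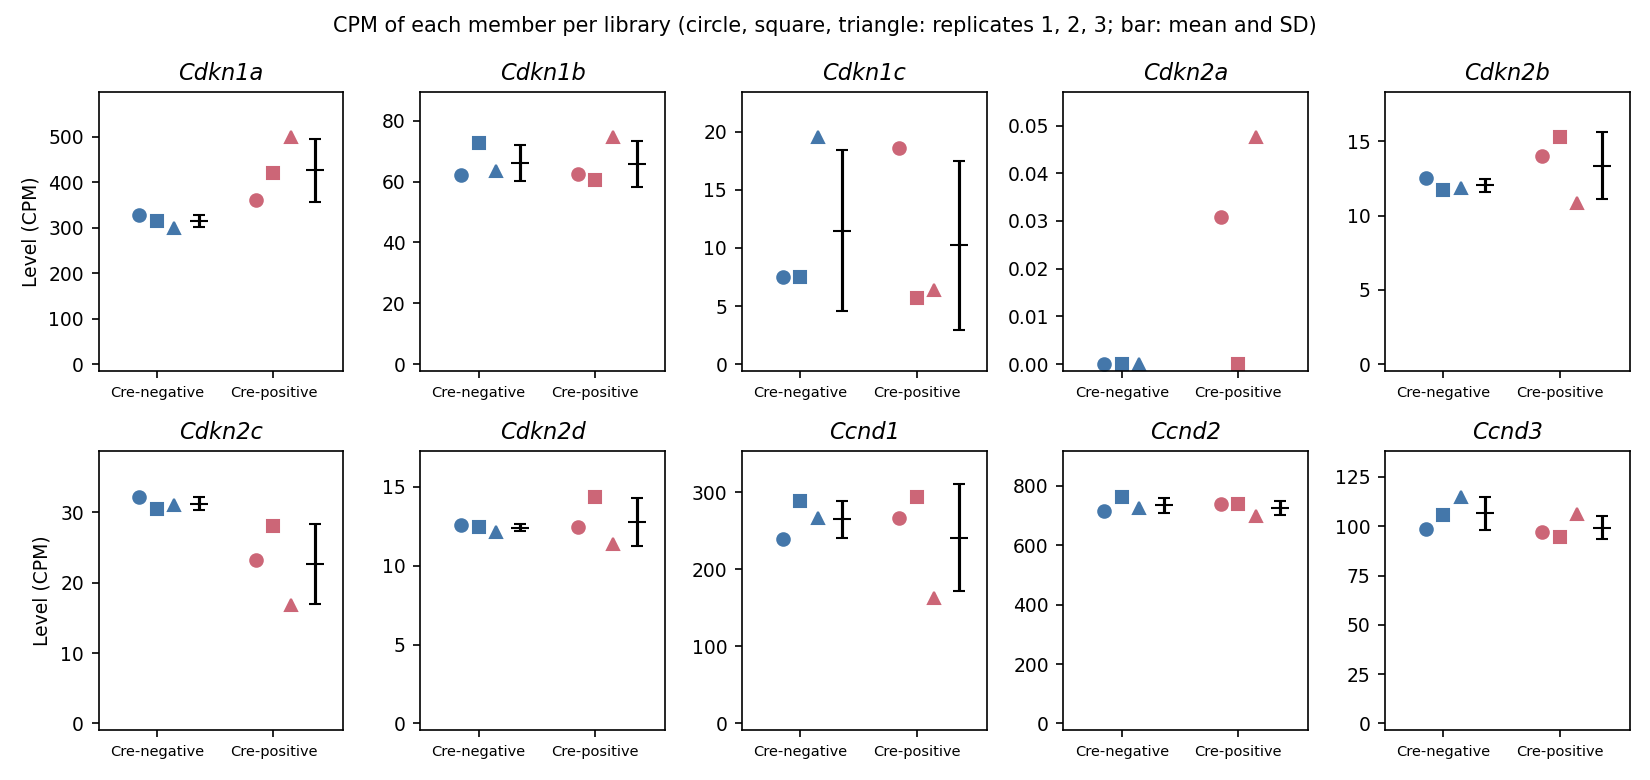
Level of each of the 10 genes in CPM per library, with the mean and SD of 3 libraries as bars (no bar for Cdkn2a, which had at most 1 count). All Cre-positive points of Cdkn1a lie above, and all those of Cdkn2c below, the Cre-negative points, while the other genes overlap.

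Among the CIP/KIP inhibitors, Cdkn1a lay at 361, 420.1 and 498 CPM in Cre-positive replicates 1, 2 and 3, whereas replicates 1, 2 and 3 of the Cre-negative group had 328, 316 and 300.0 CPM. Every Cre-positive library was above every Cre-negative one, and the Cre-negative libraries lay close together. The means were 426 ± 69.1 and 314 ± 13.99 CPM (SD, n = 3 each), a log2 fold change of 0.44 (SE 0.13, 95% interval 0.14 to 0.74, edgeR adjusted p = 0.163). DESeq2 gave nearly the same size, 0.45, and an adjusted p of 0.0296. By sex, the male libraries had 361 and 420.1 CPM with Cre against 316 without, and the female libraries 498 against 328 and 300.0. As the groups did not overlap, this order within each sex was given in advance and is no check on sex. Without Cre-positive replicate 3 the log2 fold change was 0.31 (edgeR adjusted p = 0.113). Over the Cre-positive libraries Cdkn1a had the same order as the mean log2 level of suprabasal markers. In replicates 1 and 2 that mean was also above every Cre-negative library, although the summed CPM of replicate 1 was not. Leaving out replicate 3 is thus no test of keratinocyte layer. With sex as a covariate the log2 fold change of Cdkn1a was 0.49 (SE 0.12, edgeR adjusted p = 0.120). That fit has no term for keratinocyte layer. Within the Cre-positive group only replicate 3 was female, so sex there cannot be told apart from the other traits of that library. The same holds for the fits of other genes with sex as a covariate. The parts of keratinocyte layer and of sex in the difference were not tested.

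The 3 genes whose profile over the 6 libraries lay nearest to that of Cdkn1a were Camsap2, which binds microtubule minus ends, the motor gene Myo5b and the dynein adaptor gene Bicd2. Their root-mean-square distances were 0.026, 0.032 and 0.034 log2 units, among 10495 genes with a mean of at least 5 CPM. Each was highest in Cre-positive replicate 3 as well, at 200.3, 129 and 338 CPM. Their log2 fold changes were 0.41, 0.43 and 0.42, and none of the 3 passed the threshold (edgeR adjusted p = 0.146, 0.158 and 0.179). Such a nearness is a description over 6 libraries and holds no word on shared control.

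Cdkn1b encodes p27, an inhibitor that accumulates in resting cells. It lay at 62.4, 60.4 and 74.5 CPM in Cre-positive and 62.0, 72.8 and 63.5 CPM in Cre-negative replicates 1, 2 and 3. The groups overlapped throughout. The log2 fold change was -0.01 (95% interval -0.26 to 0.24, edgeR adjusted p = 0.979), and its sign turned with other size factors.

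Cdkn1c, the imprinted gene of the inhibitor p57, had 18.6, 5.66 and 6.41 CPM in Cre-positive and 7.500, 7.48 and 19.5 CPM in Cre-negative replicates 1, 2 and 3. One library of each group was high, Cre-positive replicate 1 and Cre-negative replicate 3, and these are the 2 libraries with the highest sums of fibroblast markers (1368 and 811 CPM) and of endothelial markers (24.1 and 20.8 CPM, against 2.12 to 8.54 in the others). The part of those cells in the Cdkn1c level was not tested. The log2 fold change of -0.15 had a wide interval, -1.46 to 1.15 (edgeR adjusted p = 0.905). It was -0.93 without Cre-positive replicate 1, 0.46 without Cre-negative replicate 3, and 0.13 and 0.09 without Cre-positive replicates 2 and 3, so its direction rests on single libraries.

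Of the INK4 inhibitors, Cdkn2c, which encodes p18, had 23.2, 28.1 and 16.8 CPM in Cre-positive and 32.2, 30.5 and 31.1 CPM in Cre-negative replicates 1, 2 and 3. All Cre-positive libraries were lower, replicate 3 the lowest. The means were 22.7 ± 5.68 and 31.3 ± 0.903 CPM (SD, n = 3 each), a log2 fold change of -0.46 (SE 0.17, 95% interval -0.87 to -0.06, edgeR adjusted p = 0.224). DESeq2 gave an adjusted p of 0.144 and limma-voom one of 0.205. With sex as a covariate the log2 fold change of Cdkn2c was -0.58 (edgeR adjusted p = 0.145). Without Cre-positive replicate 3, the library low in S phase and mitosis genes, the log2 fold change was -0.29 (edgeR adjusted p = 0.160). The part of the share of dividing cells was not tested.

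Cdkn2d, which encodes p19 of the INK4 family, lay at 12.5, 14.4 and 11.4 CPM in Cre-positive and 12.6, 12.5 and 12.1 CPM in Cre-negative replicates 1, 2 and 3. The groups overlapped, with a log2 fold change of 0.04 (95% interval -0.22 to 0.30, edgeR adjusted p = 0.863) whose sign turned under scaling by total count. Cdkn2b, the p15 gene known as a target of TGF-beta in keratinocytes, had 14.01, 15.3 and 10.8 CPM against 12.6, 11.7 and 11.8 CPM. Cre-positive replicates 1 and 2 lay above all Cre-negative libraries and replicate 3 below them. The log2 fold change was 0.15 (95% interval -0.17 to 0.48, edgeR adjusted p = 0.573) and its size varied with the processing. It was 0.28 without Cre-positive replicate 3 (edgeR adjusted p = 0.180), but 0.047 without replicate 2, 0.048 under total count scaling and 0.076 with sex as a covariate (edgeR adjusted p = 0.881, 0.888 and 0.790).

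Cdkn2a, whose locus on chromosome 4 encodes both p16 and, from another start and reading frame, the p53 activator p19Arf, was at or near 0. Its counts were 1, 0 and 1 in Cre-positive replicates 1, 2 and 3 and 0 in each Cre-negative library. The floor of 3 counts corresponds to between 0.0922 and 0.143 CPM, so a level above this was not detected in any library, and the gene was below the count filter and was not tested. The 2 products share exons, and counts per gene would not have told them apart.

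Among the D-type cyclins, Ccnd2 was the most abundant and the steadiest, at 740, 738 and 700.4 CPM in Cre-positive and 717, 764 and 727 CPM in Cre-negative replicates 1, 2 and 3. The groups overlapped fully. Its log2 fold change of -0.02 had the narrowest interval of the 9, -0.21 to 0.17 (edgeR adjusted p = 0.919). Ccnd3 had 97.0, 94.8 and 106 CPM against 98.6, 106 and 115 CPM, a log2 fold change of -0.10 (95% interval -0.30 to 0.10, edgeR adjusted p = 0.547) that was -0.22 under total count scaling (edgeR adjusted p = 0.227).

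Ccnd1, the cyclin most often tied to mitogens and Wnt signals in keratinocytes, had 266, 294 and 163 CPM in Cre-positive and 239, 288 and 267 CPM in Cre-negative replicates 1, 2 and 3. Cre-positive replicate 3 lay below all others, and the other Cre-positive libraries within or just above the Cre-negative range. The log2 fold change was -0.14 (95% interval -0.63 to 0.36, edgeR adjusted p = 0.756). It was 0.08 without Cre-positive replicate 3 and, in the other direction, -0.34 (SE 0.15, edgeR adjusted p = 0.261) with sex as a covariate, -0.30 without replicate 2 and -0.23 under total count scaling. On the opposite strand, LTO1 covers 21.3% of the counted exon length of Ccnd1, with a mean of 511.5 counts of its own. The labels do not state whether counting used the strand, so reads in that stretch cannot be told apart.

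**Figure D2:**
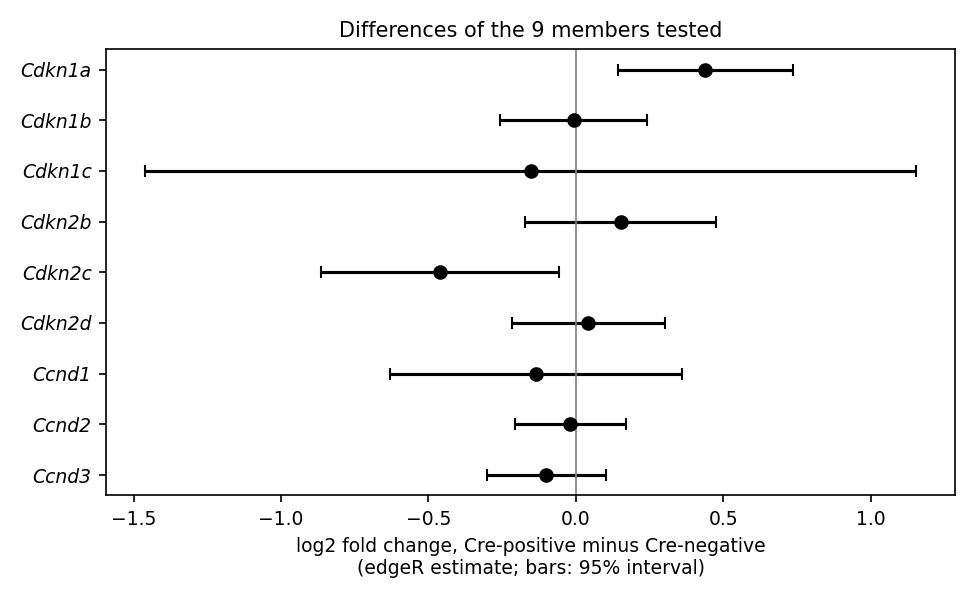
log2 fold change (Cre-positive minus Cre-negative) of the 9 members tested, as points, with the 95% interval of the edgeR fit as bars. The intervals of Cdkn1a (0.14 to 0.74) and Cdkn2c (-0.87 to -0.06) lie off 0 before adjustment for the number of genes, that of Cdkn1c is the widest, and that of Ccnd2 the narrowest.

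**Figure D3:**
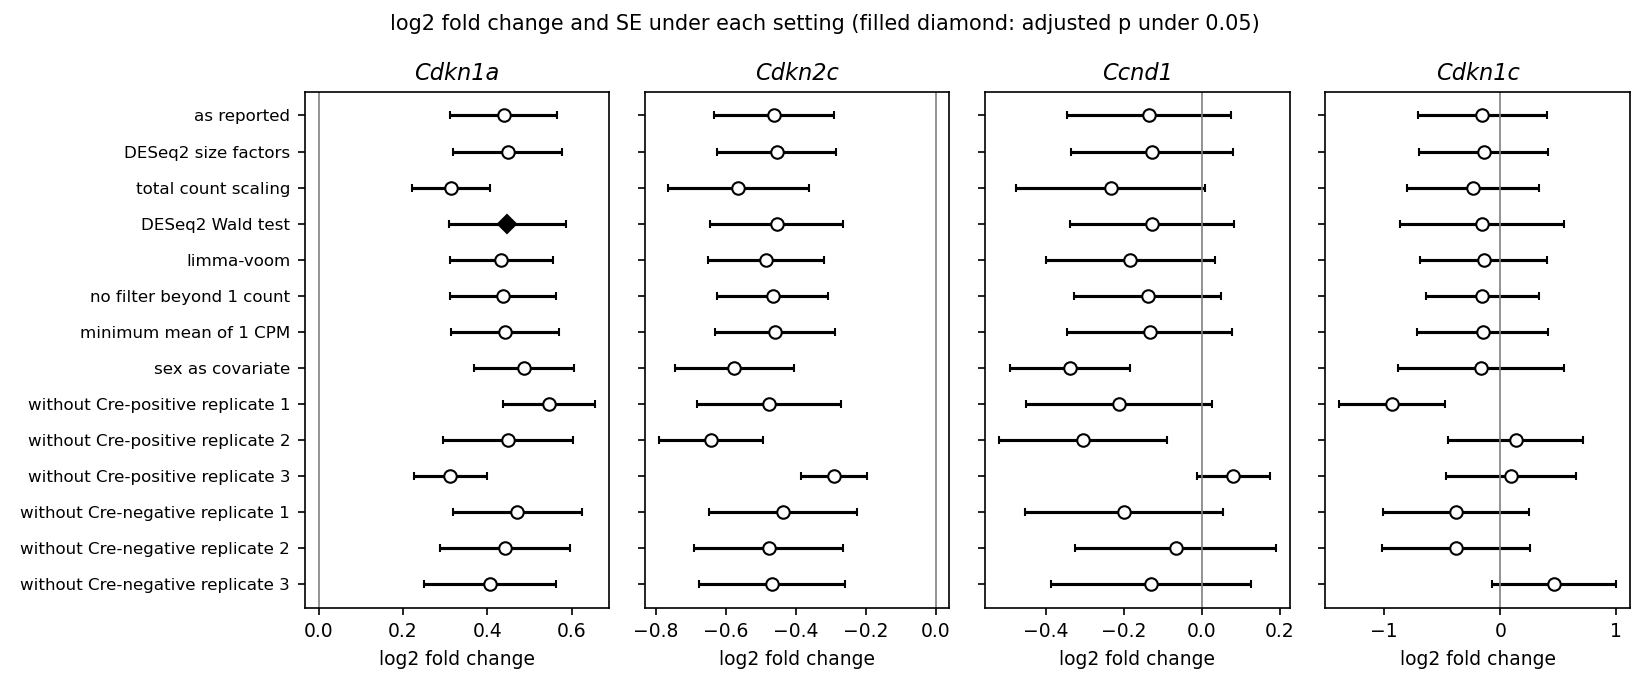
log2 fold change and SE of Cdkn1a, Cdkn2c, Ccnd1 and Cdkn1c under each way of processing and with each library left out (open circle, adjusted p of at least 0.05; filled diamond, under 0.05). Cdkn1a stays positive and Cdkn2c negative in every fit shown, while Ccnd1 and Cdkn1c change sign when single libraries are left out.

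Levels of different genes were compared as CPM per kilobase of counted exon. In Cre-negative cells the order was Cdkn1a at 141 ± 6.29, Ccnd2 at 129 ± 4.41, Ccnd1 at 69.0 ± 6.36, Cdkn1b at 14.5 ± 1.28, Ccnd3 at 12.1 ± 0.938, Cdkn2c at 11.6 ± 0.336, Cdkn2d at 9.75 ± 0.175, Cdkn2b at 8.65 ± 0.318 and Cdkn1c at 5.96 ± 3.60 CPM per kilobase (SD, n = 3), with Cdkn2a at 0. Of these neighbours, Ccnd3 and Cdkn2c overlapped in range, as did Cdkn2b and Cdkn1c, and Cdkn1a and Ccnd2 were only just apart (lowest 135.0 against highest 134.0). In Cre-positive cells Cdkn1a reached 192 ± 31.1 and stood clear of Ccnd2 at 127 ± 3.90, while Cdkn2c, at 8.44 ± 2.11, overlapped in range with Cdkn2b above it and Cdkn1c below it. Ccnd3 moved above Cdkn1b, to 27.6 in Cre-negative cells, when the longest annotated transcript was taken as the length, its counted exons adding up to 8775 bases.

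**Figure D4:**
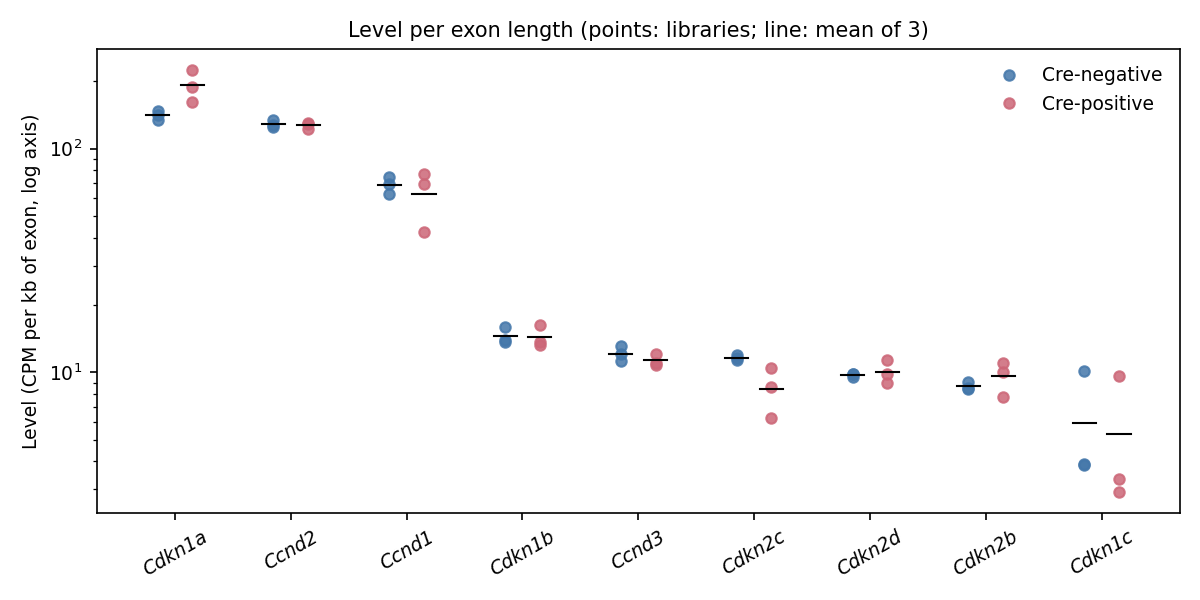
Level of 9 members in CPM per kilobase of exon on a log axis, ordered by the Cre-negative mean; points are libraries and lines are means of 3. Cdkn1a, Ccnd2 and Ccnd1 stand at or above 42.4 CPM per kilobase in every library and the other members at or below 16.4.

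Within each library, the level of Cdkn1a relative to the sum of the 3 D cyclins, both per kilobase, was 0.772, 0.871 and 1.26 in replicates 1, 2 and 3 of the Cre-positive group, and 0.740, 0.642 and 0.642 in those of the Cre-negative group. The groups did not overlap, with replicate 3 well above the rest. Ccnd2 made up 61.7%, 59.7% and 69.3% of the D cyclin level in the Cre-positive replicates against 63.0%, 60.6% and 60.7%, so its share was higher in Cre-positive replicate 3 alone, where Ccnd1 was low. Cdkn2c made up 30.2%, 31.96% and 27.1% of the INK4 level in the Cre-positive replicates against 38.9%, 38.3% and 39.0%, again without overlap. Both contrasts repeat the values of Cdkn1a and Cdkn2c on another scale and were not tested.

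Around these genes, 10 lists of regulators and targets held 6 genes that passed the threshold, all higher in Cre-positive cells. Each of the 6 calls ended when any 1 Cre-negative library was left out (edgeR adjusted p from 0.0831 to 0.235). Without Cre-positive replicate 2 the calls of Fos, Phlda3, Zmat3, Trp53inp1 and Notch1 ended (0.0957 to 0.139), without replicate 1 those of Trp53inp1, Zmat3 and Notch1 (0.0569 to 0.0791), and without replicate 3 none of the 6. In the lists with 0 calls by edgeR, limma-voom also called 0, and DESeq2 called 1 of the RB and E2F family, 1 of the other CDK-binding regulators and 0 in the other 5. Of 16 p53 targets with roles in cell cycle arrest, 4 rose, 0 fell and 12 did not pass, with a median log2 fold change of 0.60; DESeq2 called 7 higher, as did edgeR without Cre-positive replicate 3. Ccng1, which encodes cyclin G1, rose by 1.65 (SE 0.17, edgeR adjusted p = 0.0181), Trp53inp1, a p53 cofactor gene, by 1.45, Zmat3, an RNA-binding protein gene, by 0.84, and Phlda3, an inhibitor of AKT, by 0.75. Cdkn1a, at 0.44, was smaller than each of these 4, which were named for passing the threshold, and lay below the list median of 0.60. Of the 15 windows found for 13 of the 16 genes, 1 held a p53 element as defined above, that of Ccng1. As the list was drawn up with p53 targets of these libraries already seen, its direction is not independent evidence. The calls of Zmat3 and Trp53inp1 also ended with sex as a covariate (edgeR adjusted p = 0.0636 for both), and that of Zmat3 under total count scaling (0.0662).

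Of 16 transcriptional regulators of Cdkn1a, Cdkn1b and Cdkn1c, 1 rose, 0 fell and 15 did not pass, with a median of 0.06 (-0.03 without Cre-positive replicate 3, where edgeR called 2). An unadjusted edgeR p under 0.05 was found for 7 of the 16, against 18.8% of all genes. Without overlap between the groups, 5 were higher and 3 lower, against 14.1% and 13.8% of all genes. Notch1, the receptor gene known to raise Cdkn1a in differentiating keratinocytes, lay at 451, 448 and 445 CPM in Cre-positive and 313, 282 and 300.0 CPM in Cre-negative replicates 1, 2 and 3. It rose by 0.59 on the log2 scale (SE 0.08, edgeR adjusted p = 0.0378), and unlike Cdkn1a it was no higher in Cre-positive replicate 3 than in the others. The call ended under scaling by total count (edgeR adjusted p = 0.101) and with sex as a covariate (0.0636). Of 17 inducers of D cyclins, 1 rose, 0 fell and 16 did not pass, with 4 at an unadjusted edgeR p under 0.05 and a median of -0.07. The riser was the AP-1 gene Fos (log2 fold change 1.21, edgeR adjusted p = 0.0181), an immediate early gene that tissue dissociation also induces. The 8 immediate early genes taken as markers of dissociation summed to 1097 to 1120 CPM in Cre-positive and 637 to 767 CPM in Cre-negative libraries, and their part was not tested.

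Among 12 G1 and S cyclins, their kinases and kinase activators, edgeR called 0, with an unadjusted p under 0.05 for 2 and a median of -0.20. Cdk4, the partner of D cyclins, had 192, 212 and 150.3 CPM in Cre-positive and 234, 222 and 244 CPM in Cre-negative replicates 1, 2 and 3, without overlap (log2 fold change -0.34, SE 0.13, edgeR adjusted p = 0.234), and Cdk2 had 0.21 (edgeR adjusted p = 0.212). Of the exon length of Cdk4, 18.6% is shared with Tspan31 on the other strand. Of 13 genes of the RB and E2F family 0 passed, with 2 at an unadjusted p under 0.05 and a median of -0.01. Rb1, the retinoblastoma gene, had 37.0, 36.6 and 37.5 CPM against 31.7, 27.9 and 28.5 CPM, without overlap (a log2 difference of 0.33, SE 0.08, edgeR adjusted p = 0.118; DESeq2 adjusted p = 0.0263), and the activator gene E2f2 had -0.27 (edgeR adjusted p = 0.232). Rb1 shares 8.11% and 6.78% of its exon length with Rcbtb2 and Lpar6, which run the other way.

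Of 15 genes for the turnover of CDK inhibitors and D cyclins, 0 passed, with 2 at an unadjusted p under 0.05 and a median of 0.04. The ubiquitin ligase genes Rchy1 and Fbxw7 had log2 fold changes of 0.27 and 0.24 (edgeR adjusted p = 0.160 and 0.189). Of 15 Polycomb and other regulators of the Ink4 locus, 0 passed, with 4 at an unadjusted p under 0.05 and a median of 0.01. Ezh2, the methyltransferase gene of Polycomb repressive complex 2, had -0.42 (edgeR adjusted p = 0.185) and the transcription factor gene Ets1 0.52 (edgeR adjusted p = 0.192). Without Cre-positive replicate 3, Ets1 passed, at 0.68 (edgeR adjusted p = 0.0312). Of 6 other CDK-binding regulators 0 passed, with 2 at an unadjusted p under 0.05 and a median of -0.20. Cables1 and Cables2, genes of adaptors between CDKs and other kinases, had -0.48 and -0.30 (edgeR adjusted p = 0.0885 and 0.176), and DESeq2 called Cables1 (adjusted p = 0.0189).

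Downstream, 19 of 19 S phase genes driven by E2F had negative log2 fold changes, yet 0 passed, with 3 at an unadjusted p under 0.05 and a median of -0.32. Gins2, a helicase subunit gene, had -0.56 and Mcm6 -0.35 (edgeR adjusted p = 0.191 and 0.234). Of the exon length of Gins2, 67.3% is shared with Gse1 on the other strand. Relative to the Cre-negative libraries, the mean log2 CPM of the list was -0.80 in Cre-positive replicate 3, -0.11 in replicate 1 and -0.07 in replicate 2, with -0.16 to 0.09 among the Cre-negative libraries. Without Cre-positive replicate 3 the median of the S phase list was -0.12. Of 15 mitosis genes edgeR called 0, an unadjusted p under 0.05 was found for 0, and the median was -0.20. Bub1b had -0.44 and Mki67 -0.32 (edgeR adjusted p = 0.349 and 0.510). Without Cre-positive replicate 3 the mitosis median was 0.07, of the opposite sign, and edgeR called 1 of the 15 higher. The low values of Ccnd1 and Cdkn2c and the high value of Cdkn1a in Cre-positive replicate 3 thus sat beside low S phase and mitosis genes in the same library.

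**Figure D5:**
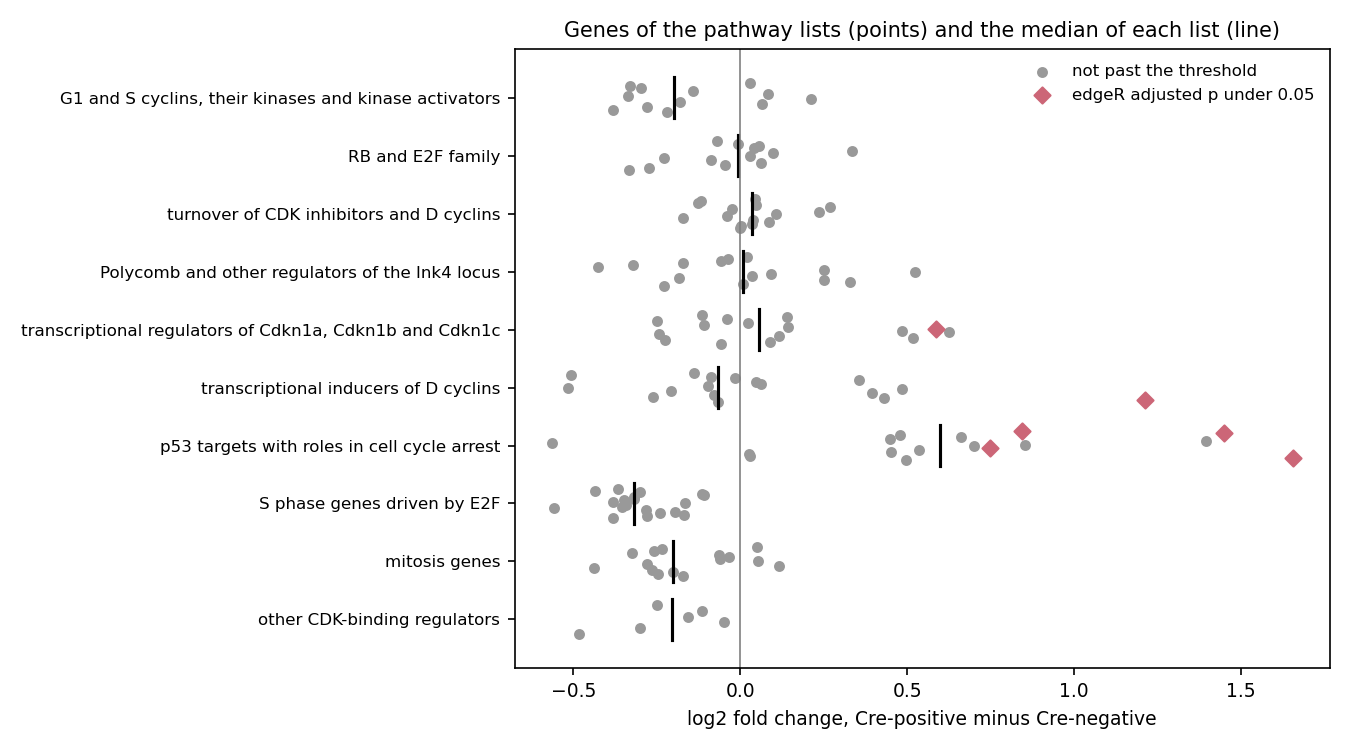
log2 fold change (Cre-positive minus Cre-negative) of each gene in the 10 lists, with the median of a list as a line and genes past the edgeR threshold as diamonds. The 6 genes past the threshold lie to the right, 4 of them among the p53 targets, and all S phase genes lie left of 0.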

How the data were processed

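The deposited table holds raw read counts per gene, not normalized, for 6 libraries, per the file headers. The submitters' processing notes name GSNAP, featureCounts and mm10, with no version or strand setting. Exon lengths were deposited with the counts. Genes were kept by filterByExpr (minimum count 10; 15525 of 38924), scaled with TMM factors and tested over the whole table in R 4.3.3 with edgeR 4.0.16 (glmQLFit and glmQLFTest, testing both directions), with Benjamini-Hochberg adjustment, a threshold of 0.05 and no covariate. Positive log2 fold changes mean higher in Cre-positive cells, with SE and 95% intervals from that fit, and CPM are counts over the TMM-scaled library size. Floors cover counting error only.

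Alternatives were DESeq2 1.42.0 size factors and Wald test, total count scaling, limma-voom (limma 3.58.1), other filters, sex as a covariate, each library left out, and another gene length. Counts of calls per list by other tools and without Cre-positive replicate 3 were chosen after seeing the data. Members and lists were chosen with earlier results of these data known. Named genes were the members, Rnaseh2b, list genes past the threshold or else the 2 of smallest p, the 3 nearest profiles and the leading markers. Code was tested on simulated data. Libraries of a group differed by a chi-square per degree of freedom of 9.11 to 70.4, so none was a copy. Windows upstream of starts come from RefSeq on GRCm38.p6.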

Additional observations from a re-analysis of the deposited data

How the results depend on the processing

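The members kept their calls except Cdkn1a, which DESeq2 called (log2 fold change 0.45, adjusted p = 0.0296; 1 member higher against 0). Signs turned for Cdkn1b with DESeq2 size factors (0.0011), the Wald test of DESeq2 (0.00093) and sex as a covariate (0.00062), and for Cdkn2d under total count scaling (-0.068) and with sex as a covariate (-0.0043). With 1 library left out, log2 fold changes ran from 0.31 to 0.55 for Cdkn1a, -0.64 to -0.29 for Cdkn2c, -0.11 to 0.068 for Cdkn1b, -0.93 to 0.46 for Cdkn1c, -0.053 to 0.11 for Cdkn2d, 0.047 to 0.28 for Cdkn2b, -0.15 to -0.041 for Ccnd3, -0.30 to 0.081 for Ccnd1 and -0.036 to 0.011 for Ccnd2, and 0 members passed in each direction. Total count scaling moved the median of all genes by -0.11, and Cdkn1a then had 0.31, Cdkn2b 0.048 and Ccnd3 -0.22. With sex as a covariate Ccnd1 had -0.34. Over all genes, 63 rose and 17 fell, against 559 and 288 with DESeq2, 104 and 38 with no filter beyond 1 count, 34 and 8 with sex as a covariate, 27 higher with total count scaling, and 0 to 288 higher and 0 to 134 lower with 1 library left out. The most were called without Cre-positive replicate 3. The cause was not tested. With fewer libraries the tests lose power, and at 3 libraries a group an interval as wide as that of Cdkn1c leaves a large difference undetected.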

Other observations

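Cyclins and CDKs outside the members were taken by symbol, a choice made after the data were seen. Of 21 other cyclin genes tested, 1 passed the edgeR threshold, Ccng1, with 81.6 ± 18.8 CPM in Cre-positive and 25.9 ± 1.57 CPM in Cre-negative cells (SD, n = 3 each), and 2 had an unadjusted p under 0.05. The second was Ccni, the cyclin I gene, at 98.6 ± 3.49 against 116 ± 8.48 CPM (log2 fold change -0.23, edgeR adjusted p = 0.198). Of 19 CDK genes 0 passed by edgeR and 3 had an unadjusted p under 0.05. Beside Cdk2 and Cdk4 this was Cdk16, at 110.4 ± 4.05 against 124 ± 5.18 CPM (log2 fold change -0.17, edgeR adjusted p = 0.255). The median log2 fold change was 0.04 for these cyclins and -0.06 for the CDKs.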
